A study of Mus musculus with 12 samples.

Results

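The S100 genes encode small proteins that bind calcium, and 8 of them were followed here through whole mouse liver by single-cell RNA sequencing. The members were S100a1, S100a4, S100a6, S100a8, S100a9, S100a10, S100a11 and S100a13, taken by gene symbol from the count matrices. They are 8 of the 31053 genes listed at the embryonic stage E16.5, 8 of the 22597 genes listed at postnatal day 3 (P3), and 8 of the 22519 genes listed at both stages. The rule that picks them uses the symbol and no measured value. Another 9 S100 genes are listed at both stages.

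An S100 protein holds calcium in a pair of EF-hand loops, and most members work as dimers that change shape with calcium and then grip a partner protein. S100a8 and S100a9 pair with each other to form calprotectin, which fills the cytosol of neutrophils, sequesters zinc and manganese, and on release can signal through the receptors Tlr4 and Ager. The other members act mainly inside cells, where annexins, myosin and other partners are bound. At these stages the liver is a site of blood formation, so erythroid cells, developing neutrophils, monocytes and B cells lie beside hepatocytes.

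The livers came from crosses of Jag1Ndr/+ mice, in which the Ndr allele is a germline missense allele of the Notch ligand gene Jag1, with no Cre driver. The genotypes were Jag1+/+, Jag1Ndr/+ and Jag1Ndr/Ndr, with 2 individuals for each genotype at each stage per the design text, and P3 Jag1Ndr/Ndr pups were picked by their jaundice. All livers were digested with enzymes at 37 degrees and passed over beads that remove dead cells, and TrypLE was added to the digestion at E16.5 only. An Ndr allele need not change the level of Jag1 RNA, so no library's genotype label could be checked on its Jag1 count.

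The 12 deposited matrices hold 9 separate libraries, because several share cell barcodes. An E16.5 matrix of 23166 barcodes was deposited under 2 labels, Jag1+/+ replicate 2 and Jag1Ndr/+ replicate 2, with identical counts, and was used once as the shared library. The other E16.5 libraries were Jag1+/+ replicate 1, Jag1Ndr/+ replicate 1 and Jag1Ndr/Ndr replicates 1 and 2. At P3, 19927 barcodes of the matrix labelled Jag1+/+ replicate 1 recur under Jag1Ndr/Ndr replicate 1, 892 of them with identical counts. Under Jag1Ndr/Ndr replicate 2, 18105 recur, 0 of them with identical counts. The matrix labelled Jag1+/+ replicate 2 holds all 15754 barcodes of Jag1Ndr/+ replicate 2, 0 of them with identical counts. It shares 16145 with Jag1Ndr/Ndr replicate 2, 3110 of them with identical counts. The matrices labelled Jag1+/+ replicates 1 and 2 were used with their own counts as libraries A and B, and the genotype of both is unclear. Library C is the matrix labelled Jag1Ndr/Ndr replicate 1 without the barcodes of library A, and library D is Jag1Ndr/+ replicate 1. The P3 matrix labelled Jag1Ndr/Ndr replicate 2 also shares 14957 barcodes with Jag1Ndr/+ replicate 2 and 18130 with Jag1Ndr/Ndr replicate 1. Pairs of matrices outside these overlaps shared at most 1.72% of the barcodes of the smaller matrix.

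Total UMIs, the molecules counted after removal of amplification copies, ran from 75745209 in library D to 258642858 in Jag1Ndr/+ replicate 1 at E16.5. The median per passing barcode was 5325 to 9256 in the E16.5 libraries and 2961 to 6235 in those of P3. After removal of likely doublets, 157824 cells were kept, with 15664 to 21064 in each E16.5 library and 14233 to 19524 in each P3 library. Clustering was done without the S100 genes and cells took a class by fixed markers, so that each class is neutrophil precursor-like, hepatocyte-like and so on, with the suffix left out in the rest of the text. There were 13 such classes at E16.5 and 17 at P3, and 12 held at least 20 cells in each of the 9 libraries. As means over libraries, hepatocytes were 4.12% of kept cells at E16.5 and 1.17% at P3, late erythroid cells 49.2% and 40.2%, and no cluster was led by cholangiocyte markers. Stage cannot be told apart from TrypLE, from the counting software version in the file headers (3.1.0 at E16.5, 3.0.2 at P3) or from the longer gene list at E16.5.

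All 8 genes lie on mouse chromosome 3 in the GENCODE annotation of GRCm38, in 2 groups that are 2824.77 kb apart. The first group spans 184.687 kb. In it S100a1 (chr3:90511034-90514392, minus strand) stands head to head with S100a13 (chr3:90514435-90524581, plus strand). S100a4 (chr3:90603771-90606045), S100a6 (chr3:90612882-90624181) and S100a8 (chr3:90668978-90670035) follow on the plus strand. S100a9 (chr3:90692632-90695721) lies on the minus strand, 22.597 kb beyond S100a8. The second group spans 44.155 kb and holds S100a11 (chr3:93520488-93526287) and S100a10 (chr3:93555080-93564643), both on the plus strand.

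The promoters of S100a8 and S100a9 are shown because the levels of these neighbours followed each other over the classes. Each run is the 250 bases before the RefSeq start and the first 6 bases after it, on the gene's own strand (GRCm38.p6, chr3:90668821-90669076 for S100a8 and chr3:90695716-90695971 for S100a9). RefSeq places the start of S100a8 inside the GENCODE gene given above, so part of that run lies within the GENCODE gene. Capitals mark the TATA-box letters TATAAA, the letters TTGCNNAA of a C/EBP site, and GAGGAAG, the letters of a PU.1 site, which read CTTCCTC when the match is on the opposite strand.

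S100a8: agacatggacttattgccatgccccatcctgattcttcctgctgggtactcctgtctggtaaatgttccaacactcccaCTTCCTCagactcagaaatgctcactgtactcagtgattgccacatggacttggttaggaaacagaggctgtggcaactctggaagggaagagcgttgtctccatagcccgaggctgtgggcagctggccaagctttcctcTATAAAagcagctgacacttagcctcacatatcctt
S100a9: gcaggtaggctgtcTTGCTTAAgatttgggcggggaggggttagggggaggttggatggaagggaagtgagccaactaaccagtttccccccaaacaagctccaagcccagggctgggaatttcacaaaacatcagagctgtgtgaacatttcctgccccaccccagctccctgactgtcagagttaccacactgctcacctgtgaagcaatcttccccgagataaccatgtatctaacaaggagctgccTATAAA

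The S100a8 run holds TATAAA from base 221 and CTTCCTC from base 80, and the S100a9 run holds TTGCTTAA from base 15 and TATAAA at the annotated start itself. Both strands were searched for the 3 motifs and for the AP-1 letters TGANTCA. Of 32817 RefSeq promoter windows of 300 bases, 13.6% hold TATAAA, 13.6% hold GAGGAAG, 10.8% hold TTGCNNAA and 7.81% hold TGANTCA. Among the other members with a window, S100a4 holds TATAAA and CTTCCTC, and S100a11 holds TGAGTCA in 2 places. RefSeq windows were matched for 7 of the 8 members, all but S100a10.

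S100a1 and S100a13 are shown for their shared start region, since they are transcribed away from each other with 104 bases between their RefSeq first bases. RefSeq places the first base of S100a1 further from S100a13 than the GENCODE end given above. The run is the plus strand of chr3:90514330-90514435, and the capitals are the first base of S100a1, at the left end, and the first base of S100a13, at the right end.

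S100a1 and S100a13: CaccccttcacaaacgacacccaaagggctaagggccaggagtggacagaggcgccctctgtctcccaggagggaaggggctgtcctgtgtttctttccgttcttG

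Levels are given as UMIs per 1000000 UMIs of a class (CPM), from the summed cells of each library, with the mean ± SD over libraries. The chemistry is not stated in the sources used here and CPM are not corrected for transcript length, so levels are compared between classes and stages and not between genes. Stage differences are log2(P3/E16.5) from edgeR's quasi-likelihood test on the sums, with TMM scaling and Benjamini-Hochberg adjustment over all class and gene pairs, and a difference was called at an adjusted p of at most 0.05. The labels do not say whether libraries came from separate animals beyond the design text, and the p-values measure the spread between these libraries.

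At P3 against E16.5, 46.4% of the 122771 class and gene pairs were called, 23.1% higher and 23.3% lower. Among the members, 42 of 89 tested pairs were called (47.2%), 31 higher and 11 lower, with a median log2 difference of 0.28. The members' share lies near that of all genes. S100a4 passed the filter on low counts in 5 classes and the other 7 genes in all 12. S100a1 was higher at P3 in 11 of 12 classes and lower in none. S100a6 was higher in 7 and lower in 1, S100a8 higher in 4 and lower in 1, and S100a9 higher in 2 and lower in 1. S100a13 was higher in 4 and lower in 2, S100a10 higher in 2 and lower in 2, S100a11 higher in 1 and lower in 3, and S100a4 was lower in 1.

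With plain library sizes in place of TMM, the split of calls over all genes moved from 28353 higher and 28567 lower to 34967 and 18026, and that of the members to 42 higher and 7 lower. By gene, S100a11 then went to 4 higher and 2 lower, S100a10 to 5 and 1, S100a13 to 5 and 0, S100a6 to 9 and 1, S100a8 to 6 and 1, S100a4 to 1 and 1 and S100a1 to 10 and 0, while S100a9 stood at 2 and 1 as before. The change of scaling shifted the median of all genes by 0.59 in macrophages, 0.38 in early erythroid cells, 0.24 in mesenchymal cells and in pro-B and pre-B cells, 0.22 in megakaryocytes, 0.19 in endothelial cells, 0.18 in hepatocytes and in promyelocytes, and 0.11 in late erythroid cells. Over all kept cells the shift was 0.50. No called difference of a member changed sign with this scaling. CPM values carry plain library sizes, so a CPM ratio can differ from the fitted difference by these shifts. The borders of the classes also depend on the random seed of the clustering. With a second seed, added after seeing the data, the calls of S100a1 and S100a10 in late erythroid cells and of S100a6 in promyelocytes were lost. In return S100a11 in endothelial cells (0.39, adjusted p = 0.0469) and S100a9 in basophil and mast cells (1.28, adjusted p = 0.0473) were called with that seed.

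**Figure D1:**
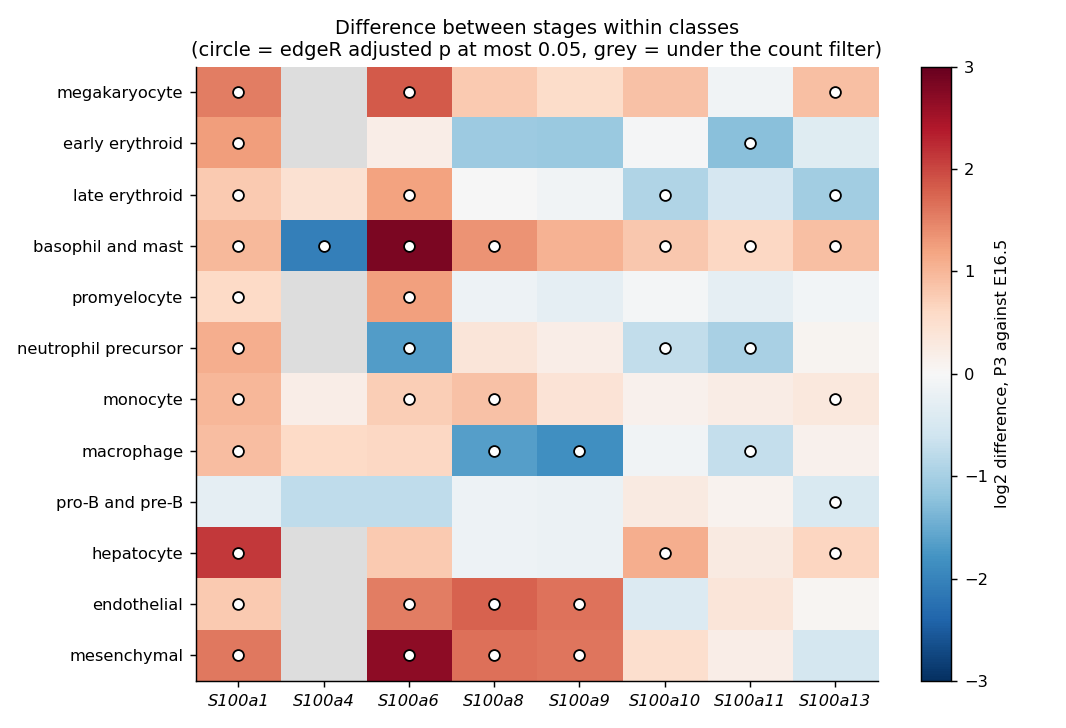
Log2 difference between P3 and E16.5 of each S100 gene (columns) in each of the 12 tested classes (rows), as a colour scale, from edgeR with TMM scaling; circles mark differences called at an adjusted p of at most 0.05 and grey cells were under the count filter. S100a1 is above 0 in 11 of 12 classes and called in 11, while S100a6 runs from -1.67 in neutrophil precursors to 2.83 in basophil and mast cells.

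S100a8 and S100a9, the subunits of calprotectin, made up 17.6% ± 0.484 of all UMIs in neutrophil precursors at E16.5 (SD, n = 5) and 22.1% ± 2.30 at P3 (n = 4). In mature neutrophils, a class named only at P3, the pair made up 23.4% ± 2.23. As means over libraries, neutrophil precursors held 79.5% of all S100a8 UMIs at E16.5 while being 6.71% of cells. At P3 they held 59.9% and mature neutrophils a further 22.6%.

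In neutrophil precursors at E16.5, S100a8 stood at 83269 CPM in Jag1+/+ replicate 1, 91316 in the shared library, 78236 in Jag1Ndr/+ replicate 1, and 79660.0 and 93009 in Jag1Ndr/Ndr replicates 1 and 2. At P3 it stood at 113924, 101719, 123340.0 and 114400.0 in libraries A to D. Every P3 library was above every E16.5 library. The fitted difference of 0.37 (SE 0.17, adjusted p = 0.0908) was not called with TMM, but was with plain library sizes (0.40, adjusted p = 0.00396) and with DESeq2 (0.34, adjusted p = 0.0207). S100a9 averaged 90917 ± 6273 CPM at E16.5 and 107306 ± 16560.0 at P3 with overlapping libraries, and its difference of 0.19 (SE 0.21, adjusted p = 0.495) was not called.

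Promyelocytes, the earlier granule-forming stage marked by Elane and Mpo, held less of both. S100a8 was at 31936 ± 5455 CPM at E16.5 and 32655 ± 5479 at P3, and S100a9 at 27917 ± 4603 and 26669 ± 6486. The libraries of the stages overlapped for both genes, and neither difference was called (S100a8 -0.16, adjusted p = 0.380; S100a9 -0.27, adjusted p = 0.261). Within the class the cells were spread widely: at E16.5 the pair's share of a cell's UMIs had a median of 2.80% to 5.73% and a 90th percentile of 14.1% to 15.98%, over libraries.

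Monocytes stood apart from the other classes in how the pair was divided. S100a8 was at 5077 ± 533 CPM at E16.5 and 10109.8 ± 2551 at P3, and S100a9 at 2468 ± 239 and 3494 ± 1559. The number of S100a8 UMIs per S100a9 UMI in monocytes was 2.06 in Jag1+/+ replicate 1, 2.44 in the shared library, 2.47 in Jag1Ndr/+ replicate 1, and 1.67 and 1.77 in Jag1Ndr/Ndr replicates 1 and 2. At P3 it was 2.44, 2.84, 3.00 and 4.13 in libraries A to D. No monocyte value was below 1.67, whereas neutrophil precursors had means of 0.943 ± 0.135 and 1.07 ± 0.145.

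Taken against the neutrophil precursors of the same library, the monocyte ratio was 2.23 at E16.5, with a range of 1.74 to 3.00, and 2.87 at P3, with a range of 2.58 to 3.23. The same quantity in the other classes lay between 0.902 and 1.28 over 50 values at E16.5 and between 0.911 and 1.44 over 60 values at P3. In each library the monocyte value therefore lay above those of all other classes, with no test since the classes come from the same cells' clustering. The monocyte level was carried by some of the cells. The pair's median share of a monocyte's UMIs was 0.0432% to 0.185% in the E16.5 libraries and 0.193% to 0.898% in those of P3, whereas the 90th percentile was 1.33% to 2.61% and 4.02% to 6.22%. In the monocyte class, S100a8 rose by a log2 difference of 0.88 between stages (SE 0.18, adjusted p = 0.00132), with all 4 P3 libraries above all 5 E16.5 libraries. S100a9 differed by 0.41 (SE 0.25, adjusted p = 0.203). In the same class the dendritic marker list summed to 752 to 1473 CPM at E16.5 and was lower at P3, at 79.8 to 198, and its part in the monocyte differences was not tested.

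**Figure D2:**
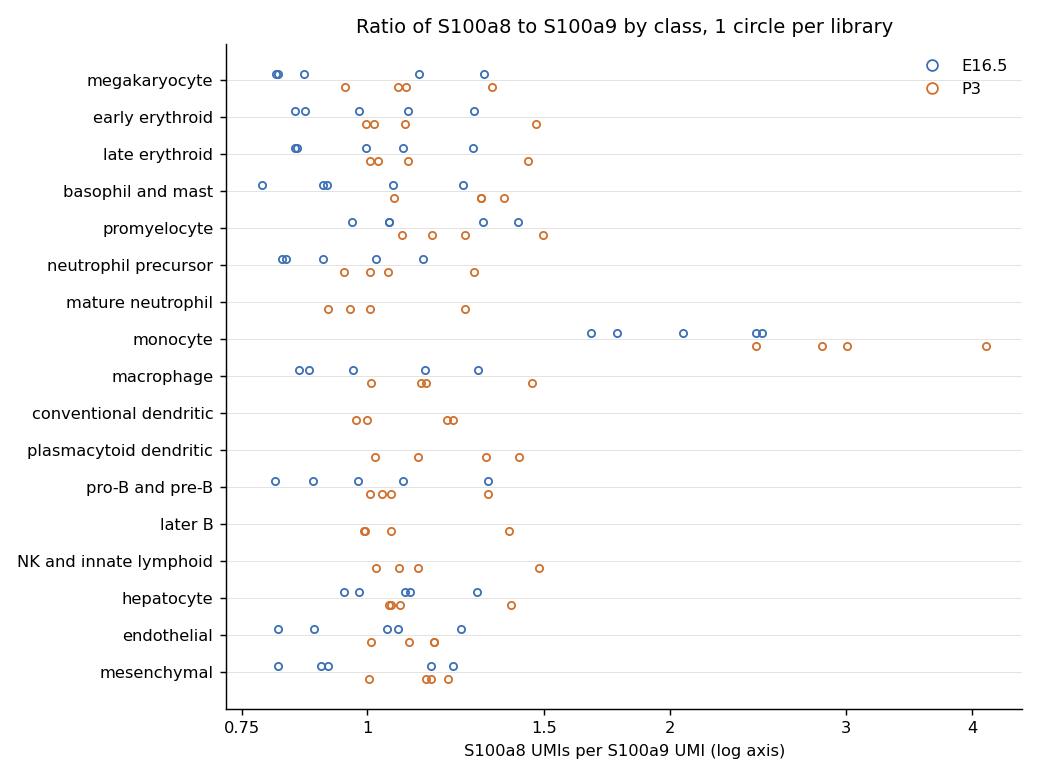
S100a8 UMIs per S100a9 UMI (horizontal, log axis) in each class (rows), 1 circle for each library, at E16.5 (5 libraries, blue) and P3 (4 libraries, orange). Monocytes lie at 1.67 to 2.47 in the E16.5 libraries and at 2.44 to 4.13 in the P3 libraries, above the other classes of the same library.

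S100a8 UMIs were found in most cells of classes that are not known to express the gene. Free RNA in the droplets can give such UMIs, and its amount was not measured here. At E16.5, on average over libraries, 92.5% of hepatocytes, 91.6% of late erythroid cells and 91.1% of pro-B and pre-B cells had at least 1, at median depths of 2717 to 9685 UMIs over libraries. With each cell thinned to 2000 UMIs these shares were 71.2%, 62.2% and 58.9%, against 69.6% in monocytes, 92.2% in promyelocytes and 100% in neutrophil precursors. The monocyte share at E16.5 (96.4% unthinned) thus lies near the shares of these other classes. At P3 it was 88.3% against 63.1% in hepatocytes (97.6% against 80.5% unthinned), over 2353 of 2429 monocytes and 554 of 812 hepatocytes deep enough to be thinned. Outside the neutrophil lineage and monocytes, levels of S100a8 ran from 484 CPM in pro-B and pre-B cells to 1713 in endothelial cells at E16.5.

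In stromal classes both genes were higher at P3. Endothelial S100a8 was at 2376, 1145, 1065, 2075 and 1906 CPM in the 5 E16.5 libraries and at 8549, 8834, 3828 and 5328 in libraries A to D, with no overlap. Its log2 difference was 1.77 (SE 0.30, adjusted p = 0.000253), and that of S100a9 was 1.62 (SE 0.33, adjusted p = 0.00102). Mesenchymal cells gave 1.65 (SE 0.46, adjusted p = 0.00840) for S100a8 and 1.61 (SE 0.43, adjusted p = 0.00626) for S100a9, with overlapping libraries, and neither was called without libraries A and B (1.27, adjusted p = 0.0606, and 1.13, adjusted p = 0.0596). Of the 8 neutrophil granule genes, 6 rose in both classes, all but Elane and Mpo. Ltf, which encodes the iron binder lactoferrin, rose by 2.80 in endothelial cells and Ngp by 2.88, and in mesenchymal cells by 2.83 and 3.00. Elane, which encodes neutrophil elastase, differed by 0.38 (adjusted p = 0.671) and 1.85 (adjusted p = 0.0563) in the same order of classes, and Mpo, which encodes myeloperoxidase, by 0.03 (adjusted p = 0.966) and 1.51 (adjusted p = 0.106). The list of 10 neutrophil precursor markers summed to 328 to 1440.4 CPM in the endothelial class at E16.5 and to 2578 to 7665 at P3. At least 9 of the 10 had UMIs in each library, and their part in the endothelial and mesenchymal differences was not tested.

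Basophil and mast cells, which store granules of histamine and proteases, were the fourth class with a rise of S100a8. It was at 121, 852, 595, 524 and 787 CPM in the E16.5 libraries and at 647, 431, 1757 and 3344 in libraries A to D, so that A and B lay inside the E16.5 range. The difference of 1.35 (SE 0.50, adjusted p = 0.0358) was lost without Jag1Ndr/+ replicate 1 (1.43, 0.0522) or Jag1Ndr/Ndr replicate 1 (1.34, 0.0551) of E16.5, without library C (1.26, 0.0851) or D (0.71, 0.245), with DESeq2 (1.35, 0.109), and with the replicate number as a block (1.36, 0.0764). At a finer clustering resolution of 2 it was -0.71 (adjusted p = 0.429). At that resolution cells with stem and progenitor markers formed a class of their own, and the E16.5 basophil and mast class went from 1651 to 271 cells.

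Macrophages, which clear senescent red cells and expelled nuclei in the fetal liver, went the other way. S100a8 was at 1437, 2305, 817, 1427 and 1187 CPM in the E16.5 libraries and at 705, 615, 838 and 573 in libraries A to D. Library C lay above the lowest E16.5 library, so the groups overlapped. The log2 difference was -1.66 (SE 0.21, adjusted p = 6.7e-05) for S100a8 and -1.83 (SE 0.23, adjusted p = 7.08e-05) for S100a9, whose groups did not overlap. Among granule genes in this class, Camp, a cathelicidin, fell by 1.81, Wfdc21 fell by 1.604, Mpo fell by 1.18 and Elane fell by 1.12, while Ltf, Ngp, Lcn2 and Chil3 were not called. The summed level of the 8 granule genes was 355 to 1019 CPM in the E16.5 libraries and 425 to 673 in the P3 libraries, and its part was not tested.

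**Figure D3:**
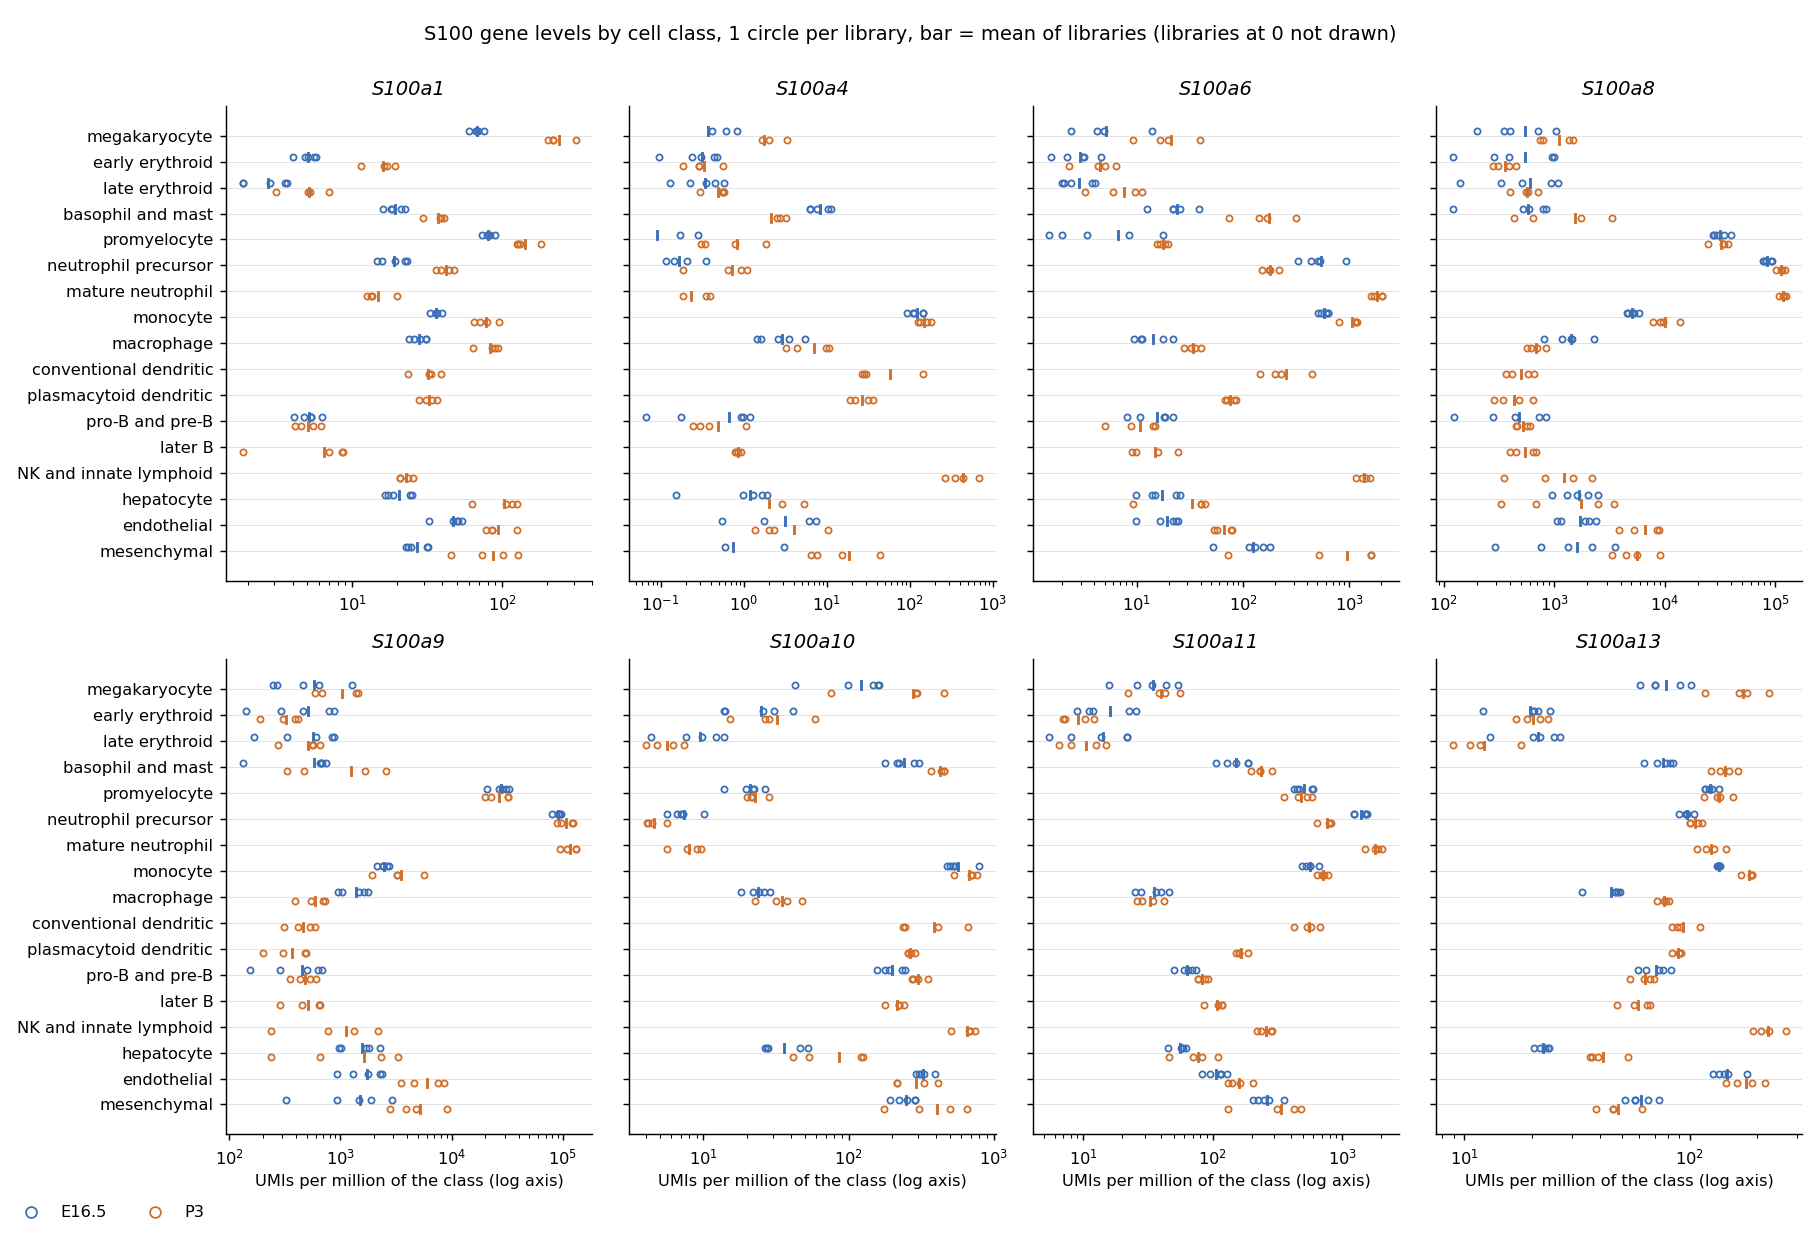
Level of each S100 gene (CPM, log axis) in each class at E16.5 and P3; points are libraries and bars their means, with libraries at 0 counted in the mean but not drawn. S100a8 and S100a9 peak in the neutrophil classes at about 85098 to 117816 CPM, S100a4 in monocytes and in NK and innate lymphoid cells, and S100a10 in monocytes.

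The granule genes over all 12 classes gave 56 of 96 pairs higher and 6 lower at P3, beside the 23.1% and 23.3% over all genes. In neutrophil precursors 5 of the 8 rose, Ngp by 1.33, Lcn2 by 0.96, Ltf by 1.00, Elane by 1.05 and Chil3 by 1.97, beside the difference of 0.37 for S100a8 that was not called. The marker lists of this class also moved: the mature neutrophil list summed to 8416 to 10711 CPM in the E16.5 libraries and 5102 to 7901 in the P3 libraries, and the precursor list to 47048 to 59788 and 96746 to 112072, and their part in the granule differences was not tested. The UMIs of the S100a8 and S100a9 pair per granule-gene UMI in this class lay between 2.99 and 3.70 in the E16.5 libraries and between 1.92 and 2.46 in the P3 libraries, without overlap. In monocytes Lcn2 rose by 1.41, Elane by 1.64 and Chil3 by 2.03, whereas Camp fell by 1.55 and the other 4 were not called.

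S100a6, or calcyclin, and S100a11, or calgizzarin, were high in neutrophils and monocytes alike, and both bind annexins. At P3 S100a6 was also high in NK and innate lymphoid cells, at 1367 ± 183 CPM. That was above monocytes, at 1062 ± 181, in each P3 library. S100a6 in neutrophil precursors was at 502, 435, 527, 936 and 330.0 CPM in the E16.5 libraries and at 179, 150.2, 216 and 177 in libraries A to D. Every E16.5 library was higher, and the fitted log2 difference was -1.67 (SE 0.29, adjusted p = 0.000614). S100a11 in the same class was at 1409.8 ± 166 CPM at E16.5 and 765 ± 86.9 at P3, without overlap, and fell by 0.96 (SE 0.18, adjusted p = 0.000891). Mature neutrophils at P3 held more of each, 1839 ± 229 CPM of S100a6 and 1809 ± 229.5 of S100a11.

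Both differences changed when the neutrophil series was divided otherwise, and the cause was not tested. At E16.5 no cluster at the main resolution was named mature, and the list of 13 mature neutrophil markers had the higher sums in the precursor class at E16.5, as given above. At the finer resolution, precursor and mature cells separated at both stages. S100a6 then stood at 55.9 CPM in precursors and 1093 in mature cells at E16.5, and at 195 and 3192 at P3. The difference within precursors reversed to 1.77 (adjusted p = 0.000234), with 1.17 (adjusted p = 0.00194) in mature cells and 1.27 (adjusted p = 0.0182) in promyelocytes. S100a11 in precursors had -0.09 and no call (adjusted p = 0.600), with 784 and 2033 CPM in precursors and mature cells at E16.5 and 771 and 2167 at P3. With all neutrophils merged, the differences were 0.13 (adjusted p = 0.749) for S100a6 and -0.52 (adjusted p = 0.0352) for S100a11. At the finer resolution both genes were higher in mature neutrophils than in precursors, and higher in precursors than in promyelocytes, in each of the 9 libraries.

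**Figure D4:**
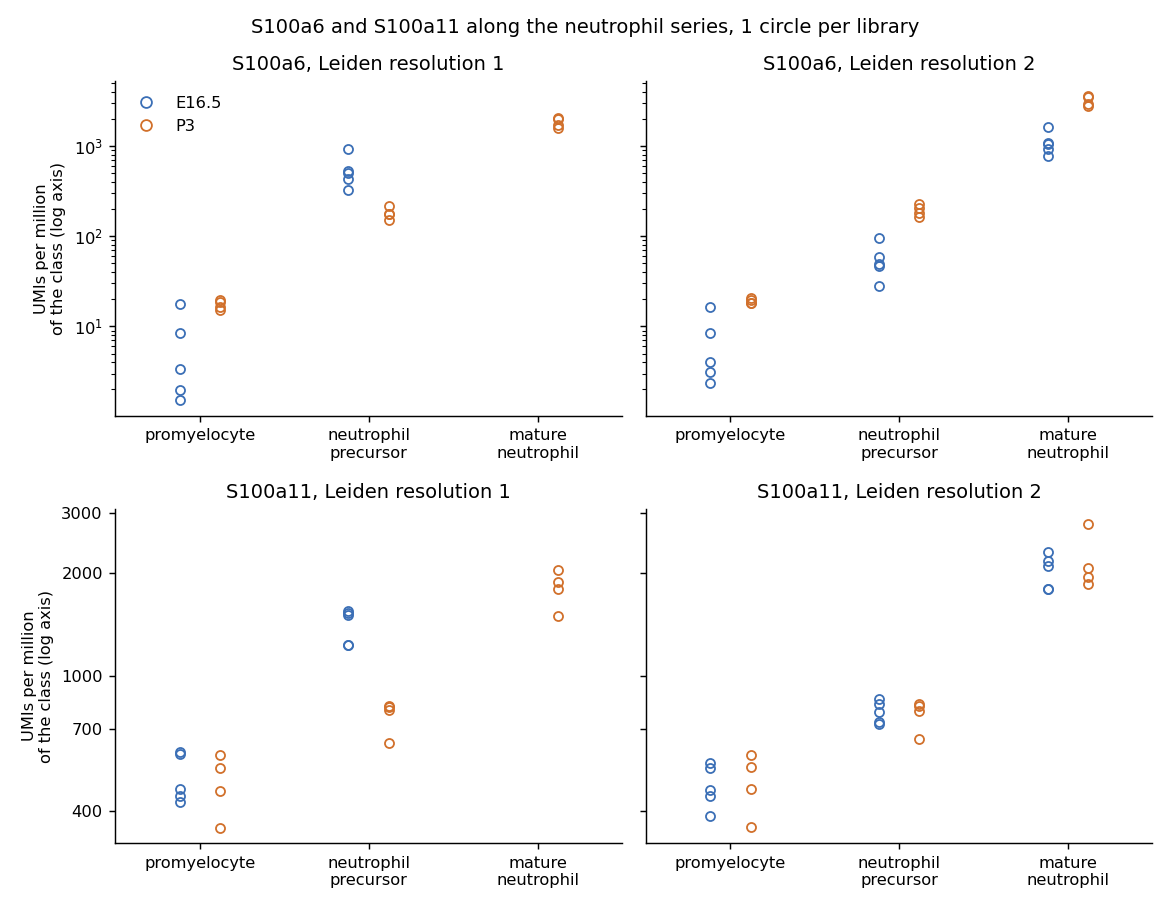
S100a6 (upper row) and S100a11 (lower row) in promyelocytes, neutrophil precursors and mature neutrophils (CPM, log axis), with clustering at the main resolution of 1 (left) and the finer resolution of 2 (right), 1 circle for each library. At the finer resolution S100a6 goes from 2.35 to 20.6 CPM in promyelocytes to 775 to 3579 in mature neutrophils; at the main resolution no E16.5 cluster was named mature.

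Outside neutrophil precursors S100a6 had no fall, and 7 rises. Monocytes, its highest class at E16.5 with 584 ± 55.8 CPM, held 1062 ± 181 at P3, a rise of 0.75 (SE 0.15, adjusted p = 0.00172) with no overlap. Basophil and mast cells went from 24.0 ± 9.32 to 174 ± 100.5 CPM, a rise of 2.83 (SE 0.34, adjusted p = 1.01e-05), which was 0.86 without a call at the finer resolution (adjusted p = 0.0776). In that class the basophil and mast marker list summed to 903 to 3109 CPM in the E16.5 libraries and 12829.6 to 17981 in the P3 libraries, and the stem and progenitor list to 1315 to 2167 and 5414 to 7382, and their part was not tested. Endothelial cells rose by 1.53 (SE 0.26, adjusted p = 0.000210), from 19.2 ± 6.04 to 66.3 ± 13.3 CPM. The neutrophil precursor markers of the endothelial class, given above for S100a8, moved the same way, from a median sum of 1044 CPM to 6349, beside 4157 and 6196 for the endothelial list, and their part in the S100a6 rise was not tested. Late erythroid cells rose by 1.20 (SE 0.34, adjusted p = 0.0111), a call lost without libraries A and B (0.80, adjusted p = 0.144).

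In promyelocytes S100a6 was at 1.97, 8.49, 1.51, 17.9 and 3.402 CPM in the E16.5 libraries and at 16.6, 18.5, 19.7 and 15.4 in libraries A to D. Jag1Ndr/Ndr replicate 1 lay among the P3 libraries and the other 4 below them. The rise of 1.24 (SE 0.47, adjusted p = 0.0431) was lost when any library other than that replicate was left out, with adjusted p from 0.0502 to 0.102. It was also lost without libraries A and B (1.22, 0.109), with DESeq2 (1.20, 0.158), with a stricter cell filter (1.18, 0.0535), with the replicate number as a block (1.22, 0.0550) and with the second clustering seed (0.44, 0.445). The neutrophil precursor list summed to 3772 to 10258 CPM in the promyelocyte class at E16.5 and 9839 to 13827 at P3, and its part in this difference was not tested.

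Mesenchymal S100a6 varied widely among the P3 libraries. It was at 51.9, 128, 179, 154 and 113 CPM in the E16.5 libraries and at 1611, 1599.6, 520.4 and 71.8 in libraries A to D, so that library D lay inside the E16.5 range. The log2 difference was 2.68 (SE 0.55, adjusted p = 0.000947), and 1.03 (adjusted p = 0.114) without libraries A and B. The list of 7 mesothelial markers summed to 102 to 319.7 CPM in this class at E16.5, against 647 to 1492 at P3, and the list of 8 cholangiocyte markers to 14.1 to 94.9 and 52.3 to 610.3. A P3 cluster of 123 cells in this class was led by the insulin genes Ins2 and Ins1 with the collagen gene Col3a1. Ins1 and Ins2 summed to 46485 CPM in the mesenchymal class of library B, and to at most 1.19 in that of any other library. Without library B the S100a6 difference was 2.39 (adjusted p = 0.00387), that of S100a8 was 1.76 (adjusted p = 0.0110) and that of S100a9 was 1.74 (adjusted p = 0.00750). The part of the mesothelial and cholangiocyte markers was not tested.

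Megakaryocyte S100a6 was low, at 5.12 ± 5.32 and 21.2 ± 12.8 CPM. Its rise of 1.83 (SE 0.63, adjusted p = 0.0270) was lost without Jag1+/+ replicate 1 (1.67, 0.0589) or the shared library (1.71, 0.0589) at E16.5, without library C (1.39, 0.0957), without libraries A and B (2.096, 0.0587), and with DESeq2 (1.77, 0.131).

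S100a11 changed in 3 further classes. Basophil and mast cells rose by 0.61 (SE 0.17, adjusted p = 0.00876) from 152 ± 36.1 to 237 ± 38.1 CPM, but gave -0.57 (adjusted p = 0.0395) at the finer resolution. The marker lists of this class moved as given for S100a6, and their part was not tested. Early erythroid cells fell by 1.27 (SE 0.36, adjusted p = 0.0138) at low levels of 16.1 ± 7.62 and 9.13 ± 2.47 CPM, a call lost without libraries A and B (-1.32, adjusted p = 0.0613). Macrophages fell by 0.72 with TMM (SE 0.17, adjusted p = 0.00463) but differed by -0.12 with plain library sizes (adjusted p = 0.673), and their CPM of 35.0 ± 8.71 and 32.9 ± 7.02 overlapped. Monocytes held 559.6 ± 62.8 and 713 ± 57.5 CPM, a difference of 0.22 that was not called (adjusted p = 0.221).

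S100a4, which binds non-muscle myosin and is known from motile cells, passed the count filter in the fewest classes. At E16.5 monocytes stood at 91.7, 109.7, 113, 147 and 145 CPM, and the next of the 12 tested classes, basophil and mast cells, at 8.38 ± 2.30. Neutrophil precursors held 0.164 ± 0.130 CPM, from 12 UMIs in all. As a mean over libraries, monocytes carried 76.9% of S100a4 UMIs at E16.5 as 2.503% of cells. With cells thinned to 2000 UMIs, 19.1% of monocytes had an S100a4 UMI at E16.5 and 24.6% at P3, against 0.0308% and 0.0805% of neutrophil precursors. Unthinned, the shares were 48.6% and 50.7% against 0.183% and 0.444%. The median depths were 11521 to 16329.5 and 5408 to 9726 UMIs in monocytes, and 8807 to 11537.5 and 4437 to 10067 in precursors.

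At P3 the highest S100a4 was in NK and innate lymphoid cells, at 687, 356, 438 and 267 CPM in libraries A to D, beside monocytes at 181, 125, 160.4 and 132. In each library the lymphoid class was the higher. As means of the shares in each library, these cells carried 43.3% of S100a4 UMIs at P3 (35.1% to 52.4%) and monocytes 42.1% (35.75% to 46.0%), so no order can be read. The lymphoid class was 0.137% of cells at E16.5 and 1.62% at P3, with 10 to 37 cells per library at E16.5, too few to be tested. Its 126 cells at E16.5 held 649 S100a4 UMIs, or 384 CPM (exact Poisson 95% interval 355 to 415, counting error only). T-cell genes such as Cd3g and Trbc2 were among the leading genes of this class at E16.5, and at the finer resolution the highest class at P3 was named T, at 441 CPM.

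Over all kept cells S100a4 was at 4.72, 8.98, 4.91, 8.63 and 6.22 CPM at E16.5 and at 24.7, 14.8, 19.5 and 11.1 in libraries A to D, without overlap. The log2 difference of 0.86 (SE 0.27, adjusted p = 0.0209) was called where 53.1% of 14390 genes were called. It was lost without library A (0.61, adjusted p = 0.0696), without library C (0.80, adjusted p = 0.0541) and without libraries A and B (0.65, adjusted p = 0.0964). A sum over all cells does not tell apart more S100a4-rich cells from more RNA per cell: within monocytes the difference was 0.19 (SE 0.17, adjusted p = 0.380). In basophil and mast cells S100a4 fell by 2.04 (SE 0.59, adjusted p = 0.00944) on 5 UMIs over the P3 libraries, with none in library C. At E16.5 the stem and progenitor list of this class, with a median sum of 1415 CPM, was above the basophil and mast list, with 998, against 6175 and 15345 at P3, and the part of this in the S100a4 fall was not tested.

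S100a10, or p11, has lost calcium binding and sits in a tetramer with annexin A2 at the membrane. Its highest and lowest classes were not those of the calprotectin genes: monocytes were highest at both stages, with 569.8 ± 129 and 679 ± 103 CPM, and neutrophil precursors lowest, with 7.29 ± 1.67 and 4.56 ± 0.707. NK and innate lymphoid cells at P3 held 657 ± 103 CPM, with libraries that overlapped those of monocytes. Pro-B and pre-B cells held 201 ± 37.4 and 301 ± 37.0 CPM and carried a mean of 25.3% of a library's S100a10 UMIs at E16.5.

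S100a10 fell in 2 classes with low levels and rose in 2 others. Neutrophil precursors fell by 0.75 (SE 0.24, adjusted p = 0.0244), a call lost without library B (-0.72, 0.0519) and without libraries A and B (-0.69, 0.133), and the sign changed with doublets kept (0.59, adjusted p = 0.0845). The marker lists of this class moved as given beside the granule genes, and their part was not tested. Late erythroid cells fell by 0.91 (SE 0.27, adjusted p = 0.0144), lost with plain library sizes (-0.79, adjusted p = 0.131) and with the second clustering seed (-0.67, adjusted p = 0.0651). Basophil and mast cells rose by 0.81 (SE 0.18, adjusted p = 0.00194) from 242 ± 52.3 to 428 ± 39.5 CPM, and gave -0.31 (adjusted p = 0.215) at the finer resolution. The marker lists of this class moved as given for S100a6, and their part was not tested. Hepatocyte S100a10 was at 46.5, 27.3, 52.4, 27.9 and 26.5 CPM in the E16.5 libraries and at 121, 126, 53.4 and 41.6 in libraries A to D, with libraries A and B high and library D inside the E16.5 range. Its rise of 1.08 (SE 0.31, adjusted p = 0.0121) was lost without library A (0.89, 0.0619), without library B (0.88, 0.0507) and without both (0.19, 0.738). Promyelocyte S100a10, at 20.9 ± 4.64 and 22.7 ± 3.76 CPM, was not called (-0.06, adjusted p = 0.820), nor was macrophage S100a10, with -0.10 under TMM (adjusted p = 0.766) and the opposite sign under plain library sizes (0.53, adjusted p = 0.0592).

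S100a1, best known as a regulator of calcium cycling in heart and skeletal muscle, was higher at P3 in 11 of the 12 tested classes. Hepatocytes stood at 17.3, 16.6, 18.7, 24.9 and 24.3 CPM in the E16.5 libraries and at 106, 127, 116 and 63.2 in libraries A to D. The groups were far apart, and the log2 difference was 2.12 (SE 0.22, adjusted p = 8.34e-06). Megakaryocytes, the platelet-forming cells, went from 68.0 ± 5.41 to 239 ± 48.7 CPM, a rise of 1.54 (SE 0.20, adjusted p = 4.27e-05), and became the highest class. Promyelocytes, the highest at E16.5 with 81.1 ± 5.69 CPM, reached 142 ± 27.0, a rise of 0.60 (SE 0.14, adjusted p = 0.00341).

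The other S100a1 rises were 1.59 in mesenchymal cells, 1.25 in early erythroid cells, 1.10 in neutrophil precursors, 0.99 in monocytes, 0.97 in basophil and mast cells, 0.94 in macrophages and 0.78 in endothelial cells, with adjusted p from 4.96e-05 to 0.00283. That in basophil and mast cells, whose marker lists moved as given for S100a6, was 0.82 at the finer resolution (adjusted p = 0.0118) and was lost without libraries A and B (0.80, adjusted p = 0.0522). Marker lists also moved in the mesenchymal, endothelial, neutrophil precursor, promyelocyte and monocyte classes, as given above. The part of the marker lists in the S100a1 rises was not tested. Late erythroid cells also rose, by 0.78 (SE 0.28, adjusted p = 0.0345). That call was lost without Jag1+/+ replicate 1 (0.68, 0.0819) or the shared library (0.71, 0.0721) of E16.5, without library A (0.52, 0.126), library B (0.70, 0.0839) or both (0.23, 0.544), with plain library sizes (0.87, 0.0859), with the stricter cell filter (0.71, 0.0539) and with the second clustering seed (0.79, 0.0566). Pro-B and pre-B cells gave no call (-0.27, adjusted p = 0.335). S100a1 also rose over all kept cells, by 0.89 (SE 0.15, adjusted p = 0.000759), from 13.1 ± 2.64 to 35.1 ± 6.73 CPM. With plain library sizes it had 10 rises and no fall.

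S100a13, which takes part in the release of Fgf1 and Il1a, proteins without a secretion signal, had UMIs in all 12 tested classes in each of the 9 libraries. The same held for every other member but S100a4 and S100a6. Endothelial cells held 147 ± 20.4 CPM at E16.5 and 178 ± 31.4 at P3, a difference of 0.05 that was not called (adjusted p = 0.785). Monocytes had a mean below that of endothelial cells at E16.5 and above it at P3, with 133, 135, 134, 136 and 136 CPM in the E16.5 libraries and 188, 169, 188 and 189 in libraries A to D. The rise of 0.32 (SE 0.09, adjusted p = 0.0127) had no overlap between stages, but was lost without libraries A and B (0.33, 0.0528), with doublets kept (0.23, 0.0646) and at the finer resolution (0.24, 0.0559). At P3 the highest class was NK and innate lymphoid cells, with 223 ± 32.6 CPM.

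S100a13 rose in megakaryocytes by 0.89 (SE 0.19, adjusted p = 0.00164), from 78.6 ± 17.0 to 172 ± 44.2 CPM, and the groups did not overlap. In basophil and mast cells it rose by 0.90 (SE 0.15, adjusted p = 0.000146), but gave -0.07 (adjusted p = 0.745) at the finer resolution. The marker lists of that class moved as given for S100a6, and their part was not tested. In hepatocytes S100a13 rose by 0.64 (SE 0.17, adjusted p = 0.00628), and by 0.46 without a call at the finer resolution (adjusted p = 0.0728). Late erythroid cells fell by 1.05 (SE 0.27, adjusted p = 0.00705) and pro-B and pre-B cells fell by 0.47 (SE 0.15, adjusted p = 0.0220). Neither fall was called with plain library sizes (-0.82, adjusted p = 0.112, and -0.20, adjusted p = 0.258), and the latter was lost without library B (-0.40, adjusted p = 0.0719) and without libraries A and B (-0.39, adjusted p = 0.154). Over all kept cells S100a13 had -0.09 with TMM (adjusted p = 0.647) and 0.44 with plain library sizes (adjusted p = 0.0358), opposite in sign.

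The order of classes by level was not sharp throughout for any member. Among neighbours in the order at E16.5, the library ranges overlapped in 10 of 11 pairs for S100a4 and in 7 of 11 for S100a1 and for S100a11, the extremes. The separate pair of S100a4 was the top of its order. Monocytes were at 91.7 CPM or more, and basophil and mast cells at 11.3 or less. At P3 they overlapped in 12 of 16 for S100a1, S100a10, S100a11 and S100a13 and in 15 of 16 for S100a4. The finer resolution changed the highest class of S100a6, S100a11 and S100a13 at E16.5 and of S100a4, S100a8, S100a9 and S100a13 at P3. For S100a4 and S100a13 at P3 the highest class was then named T in place of NK and innate lymphoid. The levels were nearly the same, at 441 against 437 CPM for S100a4 and 223.5 against 223.0 for S100a13.

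Across class means on a log2(CPM + 10) scale, S100a8 and S100a9 followed each other with r = 0.99 over 12 classes at E16.5 and over 17 at P3. S100a6 and S100a11 had r = 0.80 and 0.78, the head-to-head pair S100a1 and S100a13 had 0.68 and 0.45, and S100a8 and S100a10 had -0.32 and -0.39. These are descriptions over classes that share libraries, depth and background RNA. Among 8016 genes outside the family, those most like S100a8 at E16.5 were Stfa1 (r = 0.998, and 0.996 at P3), Gm5483 and Camp, and the same 3 came first for S100a9, led by Gm5483 (r = 0.997 and 0.995). Stfa1 is a stefin, a cysteine protease inhibitor. S100a4 was most like Ms4a4c (r = 0.985 and 0.620), Ccr2, the chemokine receptor of classical monocytes (r = 0.981 and 0.786), and Ifi205. S100a10 was most like Tmsb10 (r = 0.960 and 0.918), Dpysl2 and Itpr1. S100a11 was most like Flot2 (r = 0.948 and 0.804), Ppm1m and Anxa1, the last of which encodes its annexin partner (r = 0.936 and 0.858). S100a13 was most like Frmd8 (r = 0.949 and 0.876), Apaf1 and Nfkbil1, S100a6 like Xdh (r = 0.889 and 0.764), Ugdh and Glipr2, and S100a1 like Serf2 (r = 0.864 and 0.597), Ptgs1 and Zbtb38.

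Of the 17 partner and receptor genes considered, 16 passed the count filter in some class, and 45 of 159 pairs were higher at P3 and 35 lower, 50.3% in all against 46.4% over all genes. Myh9, the non-muscle myosin that S100a4 binds, was higher in 9 of 12 classes and lower in none, by up to 1.53. Cacybp, the calcyclin-binding protein, was lower in 9 of 12 and higher in none, with differences down to -1.40, while Sugt1, another S100a6 partner, was higher in 4 with TMM and in 9 with plain library sizes. Among annexins Anxa2 was higher in 5 and lower in 1, Anxa6 higher in 7, Anxa5 higher in 5, Anxa11 higher in 2, and Anxa1 higher in 4 and lower in 2. Ahnak, which the S100a10 and annexin A2 complex binds, was higher in 3 and lower in 1.

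Among receptors, Tlr4 was lower in 3 of 7 tested classes and Ager had no call in 3. Cd36, a fatty acid receptor that can take up lipid carried by calprotectin, was lower in 10 of 12, with differences down to -3.23. Bsg was higher in 1 and lower in 5, and Nptn higher in 2 and lower in 4. Of the S100a13 cargo, Fgf1 rose in both tested classes, by 2.07 and 3.49, and Il1a in 1 of 3. Plain library sizes gave 55 higher and 24 lower over the whole list, with Cacybp lower in 6, Cd36 lower in 10, and Tlr4 higher in 1 and lower in 2. Nptn was then higher in 1 and lower in 1, with a median of the opposite sign, and Bsg was higher in 2 and lower in 2. Anxa11 was higher in 4, Il1a in 2, and Ahnak in 5 with none lower.

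At E16.5 the genotype comparison set the 2 Jag1Ndr/Ndr libraries against the 3 without that label, of which the shared library is labelled both Jag1+/+ and Jag1Ndr/+. With edgeR none of 130443 class and gene pairs was called (0%), with 2192 (1.68%) at an unadjusted p under 0.05, and DESeq2 called 18. Of 91 member pairs none was called by either tool, and 4 had an unadjusted p under 0.05 in edgeR. The member differences ran from -0.57 to 1.38 with a median of 0.01, on the log2(Jag1Ndr/Ndr / other) scale.

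The 4 pairs were S100a10 in megakaryocytes (log2 difference 1.11, SE 0.34), S100a4 in monocytes (0.45, SE 0.18), S100a1 in hepatocytes (0.57, SE 0.20) and S100a6 in promyelocytes (1.38, SE 0.64). Each had an edgeR p of 1.00 once adjusted over all pairs. Megakaryocyte S100a10 was at 163 and 159 CPM in Jag1Ndr/Ndr replicates 1 and 2, and at 99.8, 148 and 43.0 in Jag1+/+ replicate 1, the shared library and Jag1Ndr/+ replicate 1. Monocyte S100a4 was at 147 and 145 CPM against 91.7, 109.7 and 113. Hepatocyte S100a1 was at 24.9 and 24.3 CPM against 17.3, 16.6 and 18.7. In each of these 3 the groups did not overlap. The pairs had been picked by their unadjusted p, so this adds no support, and the share of all pairs without overlap was not counted. Promyelocyte S100a6 was at 17.9 and 3.402 CPM against 1.97, 8.49 and 1.51, with overlap, and its difference was -0.30 without Jag1Ndr/Ndr replicate 1. Without the filter on low counts, 0.233% of all pairs were called, among them S100a10 in megakaryocytes (1.08, adjusted p = 0.00111) and S100a6 in promyelocytes (1.37, adjusted p = 0.0166).

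Over all kept cells at E16.5, edgeR called none of 16089 genes (0%) and DESeq2 called 6, 167 had an unadjusted p under 0.05 in edgeR (1.04%), and no member did. S100a8 was at 8791 CPM in Jag1+/+ replicate 1, 13709.5 in the shared library, 9105 in Jag1Ndr/+ replicate 1, and 7568 and 9827 in the Jag1Ndr/Ndr libraries. The highest was the shared library, and the homozygous libraries lay on either side of 2 of the others. S100a6 was at 69.1, 101, 78.8, 109 and 52.4 CPM in the same order, with a homozygous library at each end. S100a9 was the 1 member whose groups did not overlap, at 8863 and 9309 CPM in the Jag1Ndr/Ndr libraries against 9347, 11392 and 10728 in the others. Its fitted log2 difference was only -0.06 (SE 0.32). The share of all genes without overlap was not counted, so the lack of overlap does not set S100a9 apart from other genes.

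**Figure D5:**
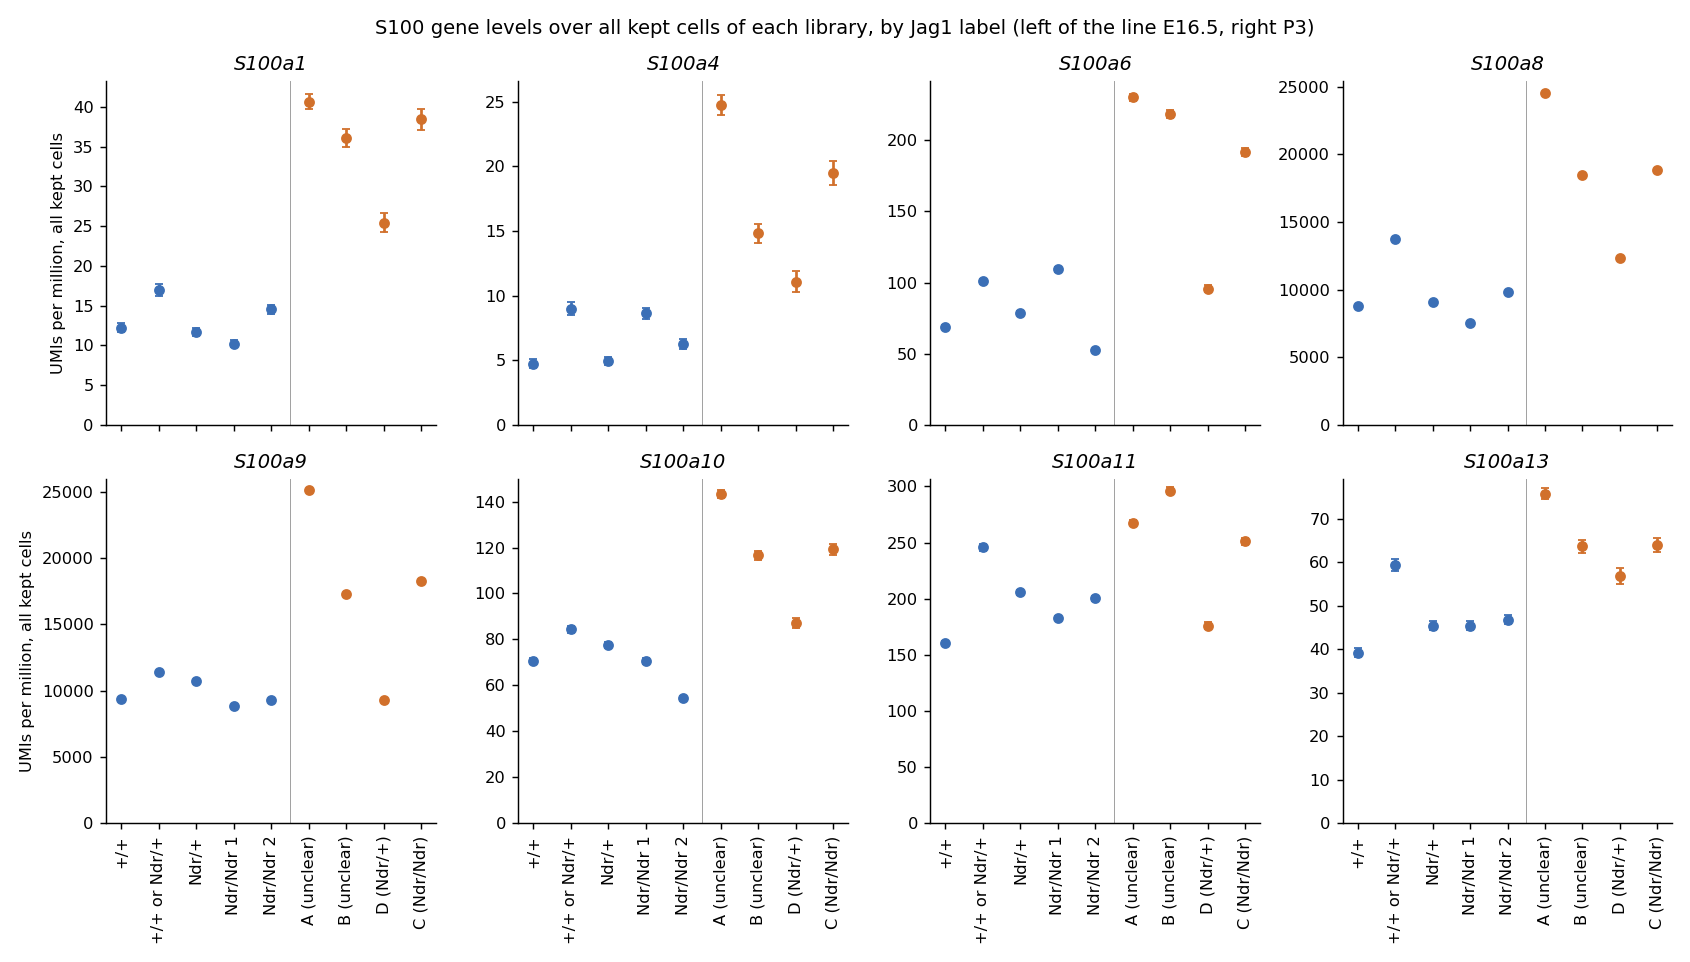
Level of each S100 gene over all kept cells (CPM) in the 5 E16.5 (blue) and 4 P3 (orange) libraries, marked with their genotype labels; bars are exact Poisson 95% intervals, which cover counting error only. No gene shown had an unadjusted edgeR p under 0.05 between genotypes at E16.5, and at P3 library D is the lowest of the 4 for all 8 genes.

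At P3 library C (labelled Jag1Ndr/Ndr) and library D (labelled Jag1Ndr/+) allow no test, with 1 library each and median depths of 4671 and 2961 UMIs. These genotypes are taken from the labels, and the matrix behind C also held 19927 barcodes of library A. Intervals are exact Poisson 95% intervals and cover counting error only. S100a9 over all kept cells was at 18253 CPM (18226 to 18281) in C and 9317 (9293 to 9340.3) in D, with 25126 and 17317 in A and B. S100a6 was at 192 (189 to 194) in C and 95.8 (93.4 to 98.2) in D, with 230.2 and 218 in A and B. For all 8 genes C was above D over all kept cells, and for S100a6 and S100a11 it was below both A and B.

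Within the 17 P3 classes, S100a8 and S100a9 were each higher in C than in D in 15 and lower in 2, endothelial cells and basophil and mast cells. In mature neutrophils S100a9 was at 130160.0 CPM in C and 94247 in D, while S100a8 was at 125082 and 117872. S100a6 was higher in 12 classes and lower in 1, with overlapping intervals in 4. S100a1 was higher in 8 and lower in none, S100a11 higher in 7 and lower in 1, S100a10 higher in 6 and lower in 2, S100a4 higher in 2 and lower in 1, and S100a13 higher in 2 and lower in 2. The share of all genes that differ between C and D, over all kept cells or within classes, was not counted. These counts therefore do not set the members apart from other genes. S100a8 UMIs were also found in most cells of classes not known to express it, so the classes may not be separate results. Since the genotypes of A and B are unclear, genotype and the difference between single libraries cannot be told apart at P3.

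Of the 9 other S100 genes listed at both stages, 2 reached a class mean of 20 CPM at a stage. S100a16 peaked in endothelial cells, at 259 ± 50.7 CPM at E16.5 and 375 ± 102 at P3. S100g, the vitamin D-dependent calbindin, peaked in hepatocytes at 16.7 ± 5.54 and 44.8 ± 18.9 CPM. The other 7 stayed below 4 CPM in every class, with highest class means from 0.00963 to 2.03 CPM at E16.5 and, at P3, from 0.133 to 3.44.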

How the data were processed

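The measurement was 10x Genomics single-cell RNA sequencing of whole liver, deposited as filtered matrices. The authors' deposited values are raw UMI counts per gene and barcode, made with Cell Ranger 2.1.1 on mm10 per the submitters' processing notes, which also list R 4.1.2 and Seurat; the file headers give 3.1.0 at E16.5 and 3.0.2 at P3. A barcode needed 1000 UMIs, of which mitochondrial genes could hold up to 15%, and a shared barcode was used once. Doublets were called per library with Scrublet (scanpy 1.11.5; 3.67% to 31.8%), and for Jag1Ndr/Ndr replicate 1 at E16.5, where the automatic threshold found none, the top 5.50% of scores were removed. Cells were clustered per stage by Leiden (igraph 0.11.9, resolution 1) on 2000 variable genes without S100, mitochondrial and sex-linked genes, and named from fixed markers; the tie rule and minimum score for naming were settled after the leading genes had been seen. UMIs were summed per library and class and tested with edgeR 4.0.16 (R 4.3.3; quasi-likelihood, TMM, filterByExpr), with DESeq2 1.42.0 and a second clustering seed among the alternatives. Simulated late erythroid and mesenchymal counts had 200 changed genes each, and 96% to 100% of 4-fold changes were recovered. Of 2-fold changes, 63% to 80% were recovered between stages and 32% to 40% between genotypes. The simulation used a fixed dispersion, changed only well-counted genes and adjusted within a single class. It therefore does not give the power of the tests adjusted over all class and gene pairs. Promoters and starts come from RefSeq (GRCm38.p6). All 8 members, other S100 genes with a class mean of at least 20 CPM, partners that were called, 8 granule genes and, per member, the 3 genes with the most similar class profile were named; the members and lists were chosen with earlier results of these data known. CPM precision follows from the UMIs; intervals cover counting error only. The replicate numbers were not taken as pairs. The second Jag1Ndr/+ and Jag1Ndr/Ndr matrices at P3 were left out because libraries A and B hold most of their barcodes.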

Additional observations from a re-analysis of the deposited data

Results flagged for a closer look

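In 34 groups of 4 or 5 libraries checked for a library far from the others, 2 were found, about the 1 in 20 that chance gives. S100a10 in monocytes at E16.5 stood at 796 CPM in Jag1Ndr/+ replicate 1, against 478 to 545 in the other 4 libraries. S100a1 in megakaryocytes at P3 stood at 311 CPM in library C, against 204 to 220.2 in the other 3.

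Some members moved in opposite directions between stages in different classes, with every library on its side; the differences between classes themselves were not tested. S100a6 was higher at P3 in basophil and mast cells (log2 difference 2.83), endothelial cells (1.53) and monocytes (0.75), and lower in neutrophil precursors (-1.67). S100a9 was higher in endothelial cells (1.62) and lower in macrophages (-1.83). S100a11 was higher in basophil and mast cells (0.61) and lower in neutrophil precursors (-0.96). At the finer clustering resolution S100a6 in neutrophil precursors turned to 1.77 and its call in basophil and mast cells was lost (0.86, adjusted p = 0.0776). S100a11 then turned to -0.57 (adjusted p = 0.0395) in basophil and mast cells and had no call in precursors (-0.09, adjusted p = 0.600), so the S100a6 and S100a11 contrasts do not hold at that resolution.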

How the results depend on the processing

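Of 44 called stage differences of members, 42 were within classes and 2 over all kept cells. In every alternative run that tested them, 19 kept direction and call. The call was lost in at least 1 run for 21, and the direction reversed in at least 1 for 6, with 2 in both groups. At Leiden resolution 2 the reversals were S100a6 in neutrophil precursors (1.77) and, in basophil and mast cells, S100a8 (-0.71), S100a10 (-0.31), S100a11 (-0.57) and S100a13 (-0.065). With doublets kept, S100a10 in neutrophil precursors was 0.59, and in the genotype comparison S100a6 in promyelocytes, 1.38, ran from -0.30 without Jag1Ndr/Ndr replicate 1 to 2.52 without the shared library. The cause of these reversals was not tested. Stage calls stayed within 1.5 times the main counts under all alternatives, at 45116 to 65743 within classes and 6707 to 7922 over all kept cells; with single libraries left out they were 50196 to 54956 and 6707 to 7580. Genotype calls within classes, 0 in the main test, were 18 with DESeq2, 493 without the low-count filter, 1 with plain library sizes, 1 at resolution 2 and 1 to 76 with single libraries left out; over all kept cells they were 6 with DESeq2, 2 without the filter and 0 to 5 with single libraries left out. With a replicate block the genotype calls were 6 within classes and 0 over all kept cells, and the stage calls 57970 and 7591. Same-numbered E16.5 libraries had correlations of deviations of 0.44, -0.01 and 0.27 over 3692 genes. Different-numbered libraries had the same values with the sign reversed, which does not settle whether the numbers are pairs. The labels give no pairing, so the main test left the number out. Some member levels split by it and others did not. Promyelocyte S100a11 was at 444, 426 and 465 CPM in replicate 1 libraries and 599 and 590 in the others, while S100a1 there overlapped. The part of the number in the member levels was not tested. Plain library sizes, merged neutrophil classes and the second clustering seed (56658 stage calls and 0 genotype calls within classes) were added after seeing the data. Library D had the lowest median depth, 2961 UMIs per barcode, and the effect of depth or of the number of cells on the calls was not tested.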
